A study of Homo sapiens with 14 samples.

Results

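The genes described here are the AP-1 transcription factor genes FOS, FOSB, FOSL1, FOSL2, JUN, JUNB and JUND, with EGR1, ATF3 and MAFF, in human aortic endothelial cells in which the receptor gene CALCRL was targeted in 2 ways. They were chosen by gene name and make up 10 of the 12202 genes that have a row in either of the authors' deposited tables. All 10 have a row in the siRNA table, which holds 11261 genes. The deletion table, which holds 11835, has a row for 8 of them, and FOS and FOSB were not analysed there.

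All 14 RNA libraries came from teloHAEC, an aortic endothelial line immortalised with telomerase and grown in medium supplemented with VEGF. In the siRNA comparison, 4 libraries from cells reverse transfected by lipofection with Silencer Select siRNA against CALCRL were set against 4 from cells given a scrambled siRNA, with lysis 24 hours later. In the deletion comparison, 3 libraries from cells electroporated with HiFi Cas9 complexed to guides on both sides of an enhancer (CALCRL_enhancer_deletion) were set against 3 from cells given Cas9 with a guide against HPRT, collected 2 days later. The deletion groups are electroporated cell populations and not clones, and the share of alleles that carried the deletion was not analysed here. The labels do not say whether replicates came from separate cultures, so p-values measure the spread between these libraries, which may be technical. Each table holds a single comparison and no value for a single library, so the levels below are group means derived from the deposited mean and fold change, and whether libraries of the groups overlap cannot be told.

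AP-1 is a family of dimers of basic leucine zipper proteins. JUN proteins pair with each other or with FOS proteins, FOS proteins need a partner such as JUN, and the dimers bind the sequence TGACTCA. Many of these genes are immediate early genes, transcribed within minutes of a stimulus without new protein synthesis, from transcripts that decay quickly. EGR1 is a zinc finger factor of the same early response, ATF3 a stress-induced relative of the CREB and ATF factors, and MAFF a small MAF protein without a transactivation domain. In endothelial cells they respond to growth factors, cytokines and flow. CALCRL encodes a receptor that couples to cyclic AMP, and the factor CREB, activated by cyclic AMP signalling, binds the sequence TGACGTCA.

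Promoter windows of 300 bases, from 250 before to 50 after the start, were found in RefSeq (GRCh38.p14) for 9 of the 10 genes, all but FOSL1, in 11 windows. JUNB and FOSL2 are shown whole, because they are the members that passed the test in one or the other comparison. The JUNB window lies on the plus strand at chr19:12791236-12791535, with TATAAA in capitals, and the FOSL2 window on the plus strand at chr2:28392608-28392907, with the AP-1 sequence TGACTCA in capitals.
JUNB: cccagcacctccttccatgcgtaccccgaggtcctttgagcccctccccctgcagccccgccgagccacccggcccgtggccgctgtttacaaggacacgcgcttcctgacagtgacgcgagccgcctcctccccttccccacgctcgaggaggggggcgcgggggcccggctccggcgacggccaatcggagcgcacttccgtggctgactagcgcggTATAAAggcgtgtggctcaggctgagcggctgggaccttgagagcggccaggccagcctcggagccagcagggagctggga
FOSL2: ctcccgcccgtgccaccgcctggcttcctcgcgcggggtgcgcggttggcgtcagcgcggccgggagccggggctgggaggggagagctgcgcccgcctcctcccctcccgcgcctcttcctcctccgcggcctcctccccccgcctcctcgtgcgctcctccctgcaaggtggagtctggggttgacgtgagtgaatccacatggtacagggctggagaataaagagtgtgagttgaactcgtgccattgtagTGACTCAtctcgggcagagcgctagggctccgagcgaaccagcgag
Stretches of 30 bases are shown for the members whose window holds TGACGTCA, because of the receptor's link to cyclic AMP. They lie on the minus strand at chr19:18281804-18281833 for JUND and on the plus strand at chr22:38201929-38201958 for MAFF, with TGACGTCA in capitals.
JUND: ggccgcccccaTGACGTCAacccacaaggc
MAFF: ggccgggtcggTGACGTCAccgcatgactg
The EGR1 window holds the CArG box, the binding sequence of serum response factor, at 2 places, shown in capitals on the plus strand at chr5:138465364-138465393 and chr5:138465386-138465415.
EGR1, first: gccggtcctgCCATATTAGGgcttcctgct
EGR1, second: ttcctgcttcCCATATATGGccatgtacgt

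These sequences were searched on both strands in all 35116 RefSeq windows. TGACGTCA was found in 1.85% of all windows and in those of JUND and MAFF, and TGACTCA, the same motif as TGAGTCA read on the other strand, in 4.95% and in that of FOSL2. A CArG box was found in 1.29% of all windows and, among the members, in that of EGR1. TATAAA was found in 11.5% of all windows and in those of FOS, FOSB, JUNB and ATF3. GGGCGG was found in 45.0% of all windows and in those of 7 members, and CCGGAAGT in 4.14% and in those of 0 members. These are matches of letters in a window and not measured binding.

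CALCRL itself was at 34.0% of the scrambled control in the siRNA table and at 36.2% of the HPRT control in the deletion table, past the threshold in both of the authors' deposited tables. With a Student t reference in place of the normal one neither call held, at adjusted p-values of 0.102 and 0.357. The call after the deletion was also lost with the GC trend removed (0.0753) or the robust SD (0.975). With the Student t reference or the robust SD, 0 of all 11830 genes tested after the deletion were called, so these values are not particular to CALCRL. The siRNA call held with the GC trend removed (adjusted p-value 2.53e-17) and with the robust SD (6.04e-14). Of 12 endothelial marker genes, 11 had a row in each table, all but PECAM1. By the Wald test of the authors' deposited tables, EGFL7 alone of the 11 fell under siRNA, and 2 fell after the deletion (CDH5 fell by 1.44 and KDR fell by 1.05 on the log2 scale). The summed derived level of the 11 was 9403 normalised counts in the scrambled and 9095 in the CALCRL siRNA group, and 8747 in the HPRT control and 7250 in the deletion group. Their part in the results below was not tested. By mean over both groups of the deletion comparison, the lowest of the 11 were EMCN, with 9.78 normalised counts, and VWF, with 18.7. Neither was called there. Of the smooth muscle markers ACTA2 and TAGLN, 2 of 5, had a row, with 0 called in either comparison by the authors' DESeq2 Wald test, and 1 under siRNA and 0 after the deletion at an unadjusted p-value under 0.05. The fibroblast, leukocyte and epithelial markers had no row in the tables used here. In bulk RNA, fewer cells of a type and less RNA per cell cannot be told apart.

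In the siRNA comparison, FOSL2 fell and the other 9 genes did not pass the test. FOSL2 encodes a FOS family protein without the strong activation domain of FOS. Its derived level was 338 normalised counts in the scrambled and 270 in the CALCRL siRNA group. This is a log2 fold change of -0.32 (SE 0.10) as given in the authors' deposited table, or 80.0% of the control (95% interval 69.6% to 91.9%). Its adjusted p-value by the DESeq2 Wald test of the authors' deposited table was 0.0486, close to the threshold of 0.05, and 384 genes including FOSL2 had one as low. Thus 1 of the 10 members was called, in a table where 3.46% of all genes were called, 1.05% higher and 2.42% lower.

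The 3 JUN genes were near their control levels under siRNA. JUN, the founding partner of AP-1 dimers, had derived levels of 1360 normalised counts in the scrambled and 1422 in the CALCRL siRNA group. Its log2 fold change was 0.06 (SE 0.08) in the authors' deposited table. JUNB, which dimerises like JUN and is a weaker activator, had derived levels of 240 and 236 and its log2 fold change as the authors' deposited table lists it was -0.02 (SE 0.17). JUND, the JUN family member expressed in most resting cells, had derived levels of 659 and 633 and the authors' deposited table gave it -0.06 (SE 0.16). The 95% intervals of the 3 genes lay within 77.4% and 124% of the control.

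FOS and FOSB, the most strongly inducible FOS genes, were the lowest members under siRNA by count. FOS had derived levels of 13.4 normalised counts in the scrambled and 11.3 in the CALCRL siRNA group, and FOSB 13.0 and 7.99. At these low counts the authors' deposited table gave FOS -0.25 (SE 0.49) and FOSB -0.70 (SE 0.40), and the 95% interval of FOSB ran from 35.7% to 106% of the control. FOSL1, a FOS family gene that is itself switched on by AP-1, had derived levels of 488 and 474 and its log2 fold change as the authors' deposited table lists it was -0.04 (SE 0.14).

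EGR1 had derived levels of 87.5 normalised counts in the scrambled and 100.6 in the CALCRL siRNA group, or 0.20 (SE 0.20) on the log2 scale as the authors' deposited table lists it. ATF3 had derived levels of 946 and 804 and the authors' deposited table gave it -0.24 (SE 0.10). ATF3 has an unadjusted p-value of 0.0148 and an adjusted one of 0.211 in the authors' deposited table, so it did not pass the test. MAFF had derived levels of 822 and 814 and its log2 fold change as the authors' deposited table lists it was -0.01 (SE 0.10). Across the 10 members the median log2 fold change was -0.05, against 0.00 over all genes of the table.

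**Figure D1:**
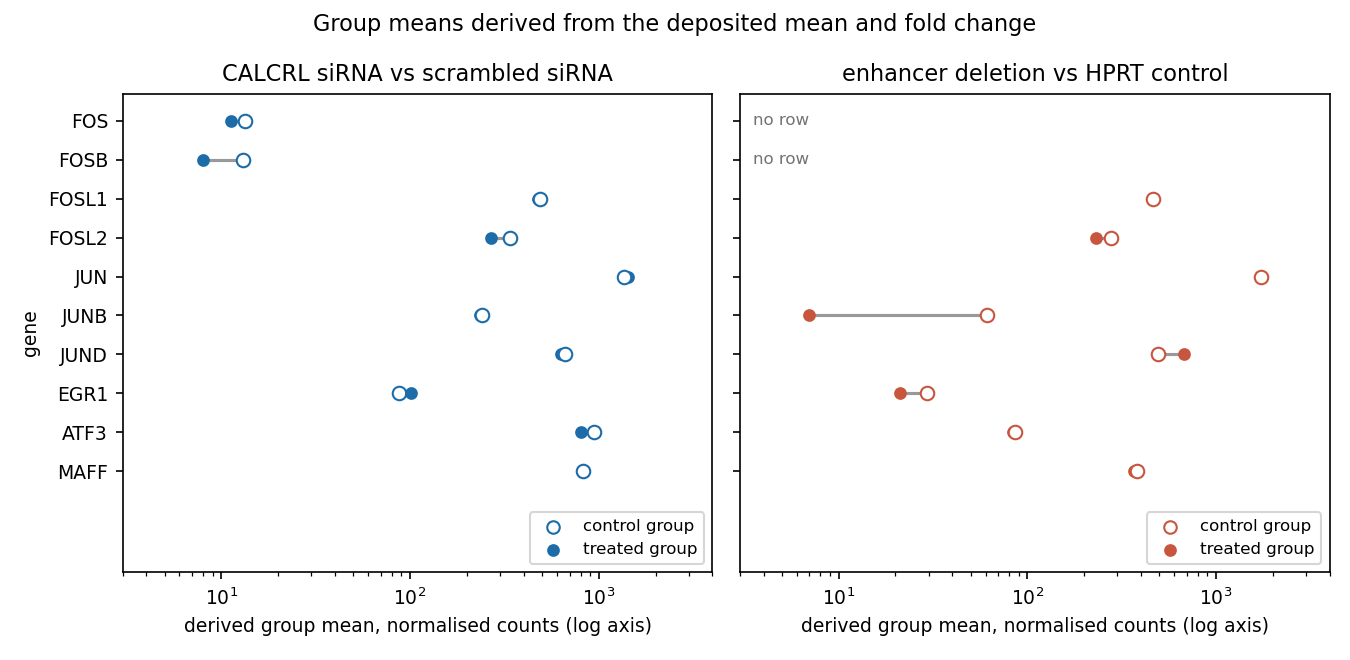
Derived mean normalised counts (horizontal, log axis) of each gene in the control group (open) and the treated group (filled), for the siRNA comparison on the left and the deletion comparison on the right; the means carry no error because the tables hold no library values. JUNB has the widest gap, from 60.9 in the HPRT control to 6.99 after the deletion, and FOS and FOSB have no row in the deletion table.

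After the enhancer deletion, JUNB fell and the other 7 members with a row did not pass the test. JUNB (chromosome 19, 12791496 to 12793315 in GRCh38, plus strand) had a derived level of 60.9 normalised counts in the HPRT control and 6.99 in the deletion group. The authors' deposited table gives a log2 fold change of -3.12 (SE 0.79) and, from the DESeq2 Wald test, an adjusted p-value of 0.00235. That is 11.5% of the control (95% interval 3.94% to 33.4%). Of the 11835 genes, 139 including JUNB had a log2 fold change as low. Thus 1 of the 8 members (12.5%) was called, where 15.8% of all tested genes were called, 7.4% higher and 8.44% lower, so the share called among the members was not above that of all genes.

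JUN and JUND, the other JUN genes, were not called after the deletion. JUN had derived levels of 1731 normalised counts in the HPRT control and 1742 in the deletion group, and its log2 fold change was 0.01 (SE 0.27) in the authors' deposited table. JUND had derived levels of 494 and 672 and the authors' deposited table gave it 0.44 (SE 0.38), so the 95% interval ran from 81.4% to 228% of the control level. Neither FOS family gene with a row passed the test. FOSL1 had derived levels of 461 and 462 and its log2 fold change as the authors' deposited table lists it was 0.00 (SE 0.30). FOSL2 had derived levels of 279 and 231 and the authors' deposited table gave it -0.27 (SE 0.27), close in size to its value under siRNA but with a wider interval, from 57.2% to 120% of the control.

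EGR1 had derived levels of 29.4 normalised counts in the HPRT control and 21.3 in the deletion group. The authors' deposited table lists it at -0.47 (SE 0.73), so that changes between 26.9% and 194% of the control lay within its 95% interval. ATF3 had derived levels of 86.1 and 83.7 and its log2 fold change as the authors' deposited table lists it was -0.04 (SE 0.43). MAFF had derived levels of 381 and 365 and the authors' deposited table gave it -0.06 (SE 0.31). The median log2 fold change of the 8 members was -0.05, against 0.00 over all genes of the table. The members' median standard error was 0.15 under siRNA and 0.34 after the deletion, against 0.17 and 0.41 over all genes.

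**Figure D2:**
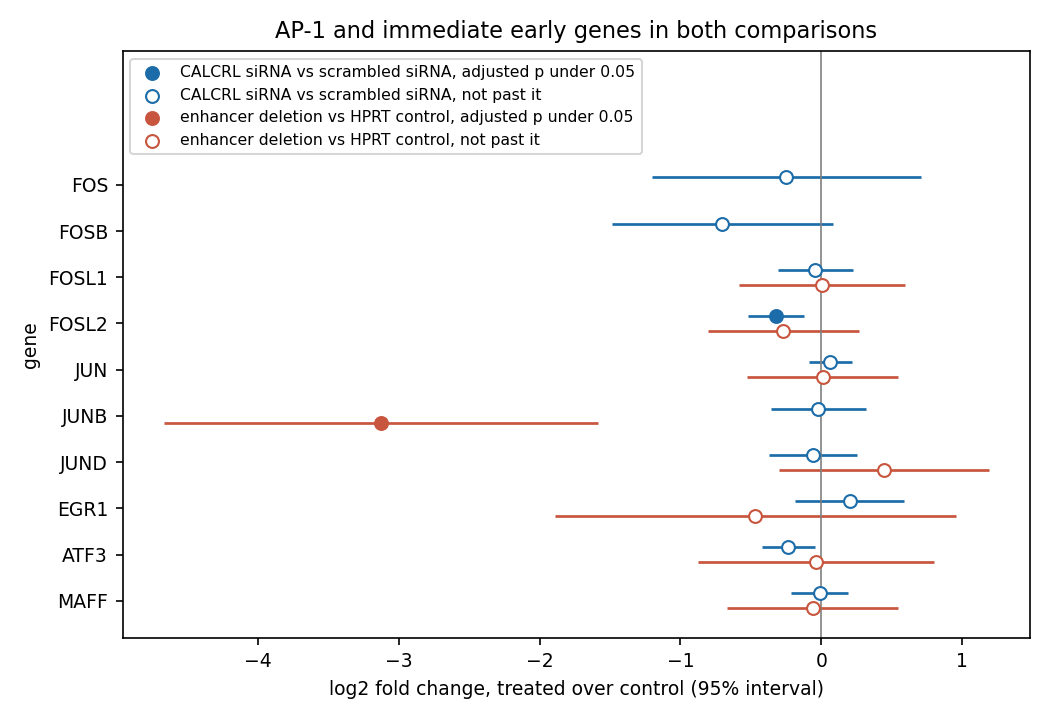
Log2 fold change of treated over control (horizontal) with its 95% interval for each gene, siRNA in blue and deletion in red, with filled points for an adjusted p-value under 0.05 in the authors' deposited tables. The filled points are FOSL2 under siRNA at -0.32 and JUNB after the deletion at -3.12, and the deletion intervals are the wider ones for each gene with a row in both tables.

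The effects of the comparisons were then set against each other directly. No library is shared between them, so the difference was tested from the 2 fold changes and their standard errors, adjusted over the 10891 genes tested in both tables, of which 13.7% were called. Of the 8 members tested, JUNB was called, with a log2 fold change under siRNA that was 3.10 (SE 0.81) above that after the deletion (normal reference, adjusted p-value 0.00409). The 95% interval of this difference ran from 1.52 to 4.68 on the log2 scale. For JUN the difference was 0.06 (95% interval -0.50 to 0.61), for FOSL2 -0.05 (-0.63 to 0.52), for FOSL1 -0.05 (-0.69 to 0.60) and for MAFF 0.05 (-0.59 to 0.69). For JUND it was -0.50 (-1.31 to 0.30), for ATF3 -0.20 (-1.05 to 0.66) and for EGR1 0.67 (-0.80 to 2.15). For these 7 genes the intervals include 0 and also differences of more than 0.5 on the log2 scale. Lipofection against electroporation, the hours until lysis and the kind of control all separate the comparisons and cannot be told apart.

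**Figure D3:**
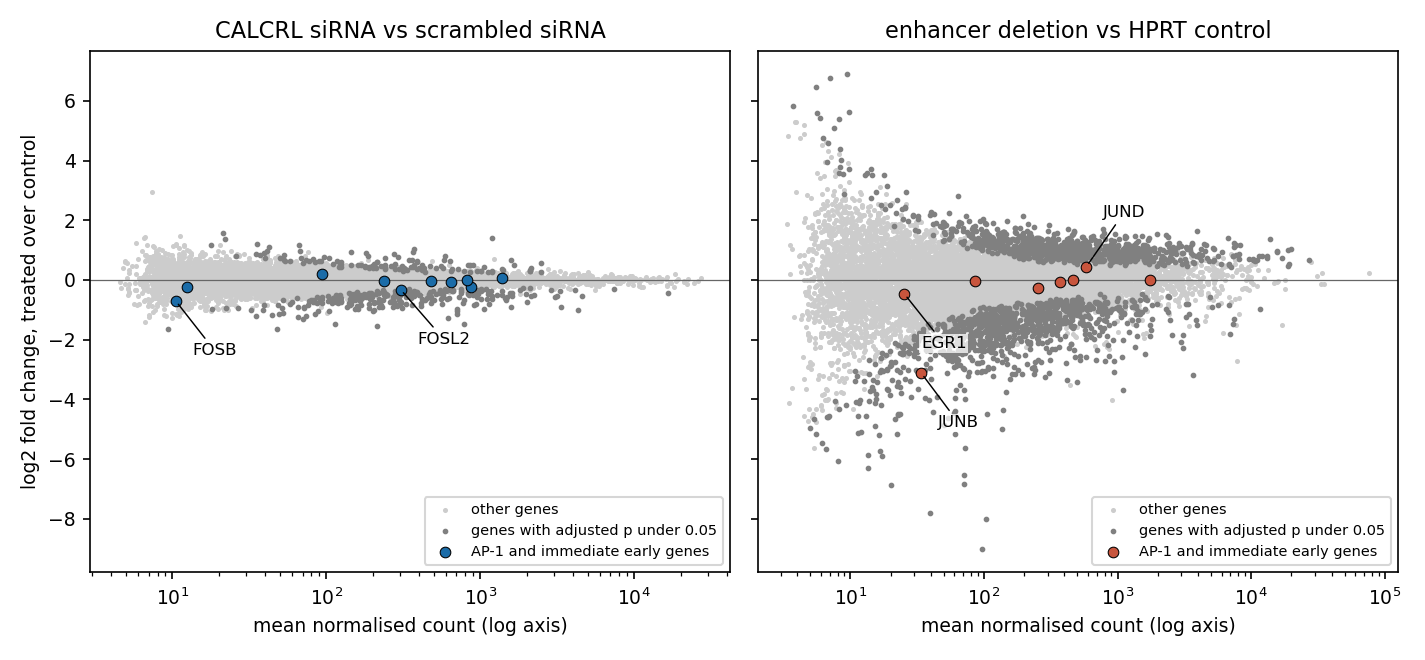
Log2 fold change (vertical) against the mean normalised count (horizontal, log axis) of every gene in the authors' deposited tables, with genes at an adjusted p-value under 0.05 in dark grey and the AP-1 and immediate early genes in colour. JUNB stands among the lowest fold changes of the deletion comparison at a mean of 34.0 normalised counts, while FOS and FOSB lie at the low-count end of the siRNA comparison.

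The level of some members differed between the control groups of the comparisons. As the tables were normalised separately, each derived control level was scaled by its table's summed means to CPM, and no test was made. ATF3 was at 208 CPM in the scrambled siRNA control and 16.7 in the HPRT control, a ratio of 12.5, at percentile 99.8 among the 10894 genes with a row in both tables. JUNB was at 52.7 and 11.8 (ratio 4.46, percentile 98.8), EGR1 at 19.2 and 5.71 (ratio 3.37, percentile 97.9) and MAFF at 181 and 74.0 (ratio 2.44, percentile 95.6). JUND was at 145 and 95.9 (1.51), FOSL2 at 74.2 and 54.1 (1.37), FOSL1 at 107 and 89.4 (1.20) and JUN at 299 and 336 (0.891), against a median ratio of 1.02 over all genes. FOS and FOSB stood at 2.95 and 2.86 CPM in the scrambled control. Of the 8 members, 7 thus had a higher share in the scrambled siRNA control, and JUN had a lower one. The highest ratios were those of ATF3, JUNB, EGR1 and MAFF. JUND, FOSL2 and FOSL1 stood at percentiles 82.4, 76.7 and 66.6. Delivery, time and the kind of control differ between these control groups and cannot be told apart.

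Reads over genes that overlap on opposite strands cannot be told apart where the strand setting of counting is not stated. JUNB overlaps HOOK2 on the opposite strand in GENCODE 29, and the authors' deposited table lists HOOK2 at 0.62 (SE 0.86) after the deletion, with a mean of 20.2 normalised counts. On the opposite strand too, FOSB overlaps ERCC1, MAFF overlaps PLA2G6 and FOSL2 overlaps FLJ31356. FOSL2 also overlaps AC104695.3 on the same strand, where counting by strand would not separate the reads. The other 6 members overlap no gene there. Set against genes of like mean count, the standard error of JUNB was 1.29 times as large under siRNA and 1.20 times after the deletion, and JUND had the highest such ratio among the members in both comparisons.

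The word GTAACAA, already known from earlier results of these data, was looked for in the members. Its bearers had a median log2 fold change of -0.12 under siRNA against 0.01 for other genes. As the word came from these same data, this shift is no independent support for it. Which siRNA sequence was used is not stated in the sources used here, so the word is given as a description of the transcripts and not as a site of the siRNA. It was found in the longest annotated 3' UTR (GENCODE 29) of 10.7% of the 10639 genes of the siRNA table that have one. It was found in 0 of the 10 members, too few genes to tell 0 apart from a share of 10.7%. The 3' UTRs of FOSL2 (4864 bases) and FOSB (2167) are longer than the median of 1691. Those of the other members are shorter, down to 500 for JUNB.

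The genes around AP-1 were described by 7 lists, which were drawn up with earlier results of these data known. In the siRNA comparison few of their genes passed the test, where 3.46% of all genes did, 1.05% higher and 2.42% lower. The share called was 7.69% of the other immediate early response genes and 9.09% of the AP-1 target genes. It was 10% of the turnover and cofactor genes, 12.5% of the AU-rich element binding proteins and 0% in the remaining lists. Each share above 0% rests on few genes. Of the other immediate early response genes, 39 had a row, and in the authors' deposited table there were 2 that fell and 1 that rose. ZFP36L2, which binds AU-rich elements and promotes decay of such transcripts, fell by 0.66 (SE 0.18) on the log2 scale in the authors' deposited table. CTGF, a matricellular protein gene and YAP target, fell by 0.53 (SE 0.16), and HBEGF, an EGF receptor ligand, rose by 0.51 (SE 0.14) in the authors' deposited table. Of 22 AP-1 target genes with a row, EDN1, the gene of the vasoconstrictor endothelin, fell by 0.37 (SE 0.10) and PTGS2, the inducible cyclooxygenase, fell by 0.46 (SE 0.15) in the authors' deposited table. Of 10 genes for AP-1 turnover and cofactors, FBXW7, part of a ubiquitin ligase that recognises JUN, fell by 0.47 (SE 0.13) in the authors' deposited table. Of 8 AU-rich element binding proteins, ZFP36L2, which is also in the list above, was the one called. The other AP-1 related bZIP factors (28 with a row), the MAP kinases (22) and the serum response factor group (6) had 0 called by the authors' DESeq2 Wald test, and 1, 2 and 0 at an unadjusted p-value under 0.05. List medians lay between -0.06 and 0.02.

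After the enhancer deletion more of the other immediate early response genes passed the test. Of 36 with a row in the authors' deposited table, 17 fell, 1 rose and 18 did not pass the test, so that 47.2% were called lower against 8.44% of all genes. Their median log2 fold change was -1.05, against 0.00 over all genes. As the list was drawn up with earlier results of these data known, these values describe it and are no independent support. CYR61, a matricellular early gene, fell by 3.41 (SE 0.48) on the log2 scale, from a derived 911 to 85.5 normalised counts, in the authors' deposited table. KLF2, a flow-induced transcription factor of endothelium, fell by 2.92 (SE 0.52), and CTGF fell by 2.09 (SE 0.42) in the authors' deposited table. MCL1, a short-lived survival protein gene, fell by 1.35 (SE 0.27), and NFKBIA, the NF-kB inhibitor, fell by 1.98 (SE 0.47) in the authors' deposited table. Named after their values were seen, MYC fell by 2.36 (SE 0.54), BTG2 fell by 2.14 (SE 0.53), DUSP1 fell by 1.51 (SE 0.51) and DUSP6 fell by 1.02 (SE 0.32), and the gene that rose was IER3 at 0.86 (SE 0.27) in the authors' deposited table. By the test of the difference, 14 of the 36 were above the deletion value under siRNA and 1 below, against 7.22% of all genes above. Of the 18 genes called, 3 (CYR61, KLF2 and MYC) belong to the 221 genes whose siRNA standard error was more than 2 times as large as for genes of like mean count, a set defined after values were seen, with a median of -2.01 after the deletion. Of this set 217 genes had a row after the deletion, with 145 called lower and 2 higher. Its part in the result was not tested. None of the 10 AP-1 members is in it, but 10 genes are too few to tell 0 apart from a share of 221 in 11261.

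**Figure D4:**
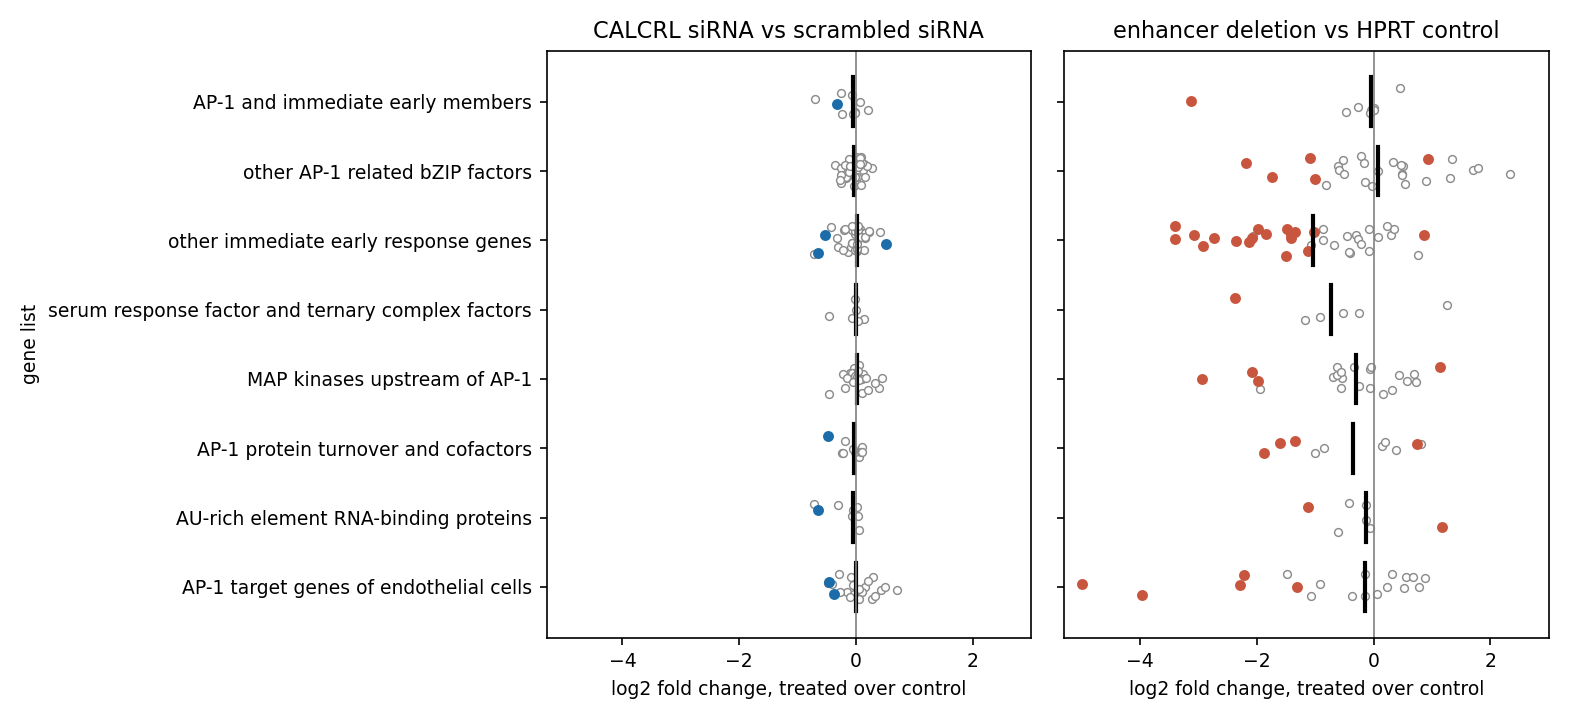
Log2 fold change of treated over control (horizontal) for each gene of 8 lists (rows), siRNA on the left and deletion on the right, with filled points for an adjusted p-value under 0.05 in the authors' deposited tables and a black bar at the list median. In the deletion comparison the other immediate early response genes centre on -1.05, while the AP-1 and immediate early members centre on -0.05. The lists were drawn up with earlier results of these data known.

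The remaining lists had fewer calls after the deletion. Of 27 other bZIP factors with a row in the authors' deposited table, 4 fell and 1 rose, or 18.5% called, near the 15.8% of all genes. MAFG, a small MAF protein like MAFF, fell by 1.74 (SE 0.45), and CEBPB, a bZIP factor of inflammation, fell by 2.19 (SE 0.57) in the authors' deposited table. CREB5 fell by 1.00 (SE 0.32) and CEBPD fell by 1.09 (SE 0.39), both named after their values were seen, and ATF4, the factor of the integrated stress response, rose by 0.92 (SE 0.24) in the authors' deposited table. The list's median was 0.07. Of the 6 serum response factor and ternary complex factor genes, ELK1, a target of ERK at the CArG box, fell by 2.38 (SE 0.78) in the authors' deposited table. That is 16.7% called, near the 15.8% of all genes.

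Among 22 MAP kinase genes with a row in the authors' deposited table, 3 fell and 1 rose after the deletion, or 18.2% called, near the 15.8% of all genes. MAP2K1, a kinase above ERK, fell by 2.94 (SE 0.55) and MAP2K3, a kinase above p38, fell by 2.08 (SE 0.43) in the authors' deposited table. MAP2K6, also above p38 and named after its value was seen, fell by 1.97 (SE 0.72) in the authors' deposited table. MAP2K2, also above ERK and named after its value was seen, was at 0.69 (SE 0.27) there and did not pass the test. MAPK12, a p38 kinase, rose by 1.14 (SE 0.38) in the authors' deposited table. Of 10 turnover and cofactor genes, DDB1 fell by 1.61 (SE 0.40), COPS5, a JUN-binding subunit of the COP9 signalosome, fell by 1.35 (SE 0.39) and TGIF1, named after its value was seen, fell by 1.88 (SE 0.70), and DDA1 rose by 0.75 (SE 0.25) in the authors' deposited table. That is 40% called, in a list of 10, against 15.8% of all genes. FBXW7, which fell under siRNA, was at 0.80 (SE 0.31) after the deletion in the authors' deposited table, and the difference of -1.27 (SE 0.33) passed the test (adjusted p-value 0.00446). Of 7 AU-rich element binding proteins, KHSRP rose by 1.17 (SE 0.26) and ZFP36L1 fell by 1.13 (SE 0.36) in the authors' deposited table. That is 28.6% called, in a list of 7, against the same 15.8%. MAP2K1 and MAP2K3 are among the 221 genes with a high siRNA standard error.

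Of 19 AP-1 target genes with a row, 5 fell after the deletion and 0 rose by the authors' DESeq2 Wald test, with 9 of the 19 at an unadjusted p-value under 0.05 in either direction. The share called was 26.3%, against 15.8% of all genes called and 8.44% called lower. Their median log2 fold change was -0.15. CCL2, a monocyte chemokine, fell by 3.97 (SE 0.72), from a derived 113 to 7.21 normalised counts, in the authors' deposited table. PLAUR, the urokinase receptor, fell by 2.30 (SE 0.50), and IL8, a neutrophil chemokine, fell by 2.21 (SE 0.53) in the authors' deposited table. Of the 5, 4 are among the 221 genes with a high siRNA standard error, all but PLAT. Under siRNA CCL2 was at 0.30 (SE 0.27), PLAUR at 0.70 (SE 0.45) and IL8 at 0.28 (SE 0.28) in the authors' deposited table, none past the threshold.

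Both member calls depended on how the p-values were formed. With a Student t reference in place of the normal one (6 degrees of freedom for siRNA, 4 for the deletion and the difference), the adjusted p-value was 0.581 for FOSL2 under siRNA, 0.357 for JUNB after the deletion and 0.386 for the difference of JUNB. Dividing the Wald statistics by their robust SD over all genes, 1.11 in the siRNA and 1.88 in the deletion table, gave 0.131, 0.975 and 0.992. With either of these settings 0 of all genes were called after the deletion or in the difference, so the lost calls are not particular to JUNB. Taking out the dependence of fold changes on 3' end GC left FOSL2 at -0.31 (adjusted p-value 0.0630) and JUNB at -3.42 after the deletion (0.000834).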

How the data were processed

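Libraries were made with the QuantSeq 3' mRNA-seq FWD kit and read for 86 cycles, per the labels' protocols. The values are the authors' deposited DESeq2 results, per the file headers: mean normalised count, log2 fold change with its standard error, Wald statistic (a score), p-value and Benjamini-Hochberg adjusted p-value, written with decimal commas. The submitters' processing notes name hg19 and edgeR 3.24.3 without a role. The aligner, annotation, strand setting and filters are not given in the sources used here. Without library values, depth per library is unknown and no count model was refitted, so the deposited Wald test was used at an adjusted p-value under 0.05. Columns were checked by recomputing the Wald statistics and adjusted p-values.

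Group means were derived from the mean and fold for groups of equal size, 95% intervals from a normal quantile, and differences between comparisons as described, with scipy 1.17.1 and statsmodels 0.14.6 in Python 3.11.15. The steps were tested on simulated data with normal errors of the deposited size, which does not test whether those errors are the right size. GENCODE 29 (GRCh38, not the hg19 of the notes) gave gene positions, 3' UTRs and the GC content of the last 500 transcript bases, matching 11099 genes of the siRNA and 11630 of the deletion table. The members and lists were chosen with earlier results of these data known, and 1 gene of the AP-1 target list is not reported here and was left out of that list's counts. Named genes are all members and, from each other list, up to 3 called genes with the lowest adjusted p-value in each comparison and in the difference. Alternatives were the Student t reference, statistics divided by their robust SD, median centring, removal of the GC trend, a minimum mean of 50, the genes in both tables, and thresholds of 0.01 and 0.1.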

Additional observations from a re-analysis of the deposited data

Results flagged for a closer look

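For 22 genes chosen by the rule for named genes, the log2 fold changes of the comparisons differed by the direct test of the difference (siRNA minus deletion, normal reference, Benjamini-Hochberg over 10891 genes). Genes named outside that rule are not among the 22, and of these BTG2, MYC, PLAT, CREB5, IER3, DUSP6 and CEBPD also passed, at adjusted p-values from 0.00448 to 0.0424. Delivery, time and control also differ between the comparisons and cannot be told apart.

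JUNB was the member among them, at 3.10. Of the early response genes, the siRNA value was above the deletion value by 3.41 for CYR61, 2.84 for KLF2, 2.13 for NFKBIA, 1.56 for CTGF, 1.43 for MCL1 and 1.16 for ZFP36L1. Of the AP-1 targets, it was above by 4.27 for CCL2, 3.00 for PLAUR and 2.49 for IL8. Of the kinases, bZIP factors and other regulators, it was above by 2.91 for MAP2K1, 2.03 for MAP2K3, 2.52 for ELK1, 2.16 for CEBPB, 1.80 for MAFG, 1.59 for DDB1 and 1.45 for COPS5. The difference was negative for KHSRP (-1.48), FBXW7 (-1.27), MAPK12 (-1.16), ATF4 (-1.02) and DDA1 (-0.94). The adjusted p-values of the 22 lay between 1.84e-05 for CCL2 and 0.0378 for MAPK12.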

How the results depend on the processing

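No paired analysis was possible because single libraries have no values here. For the same reason the replicate block, another normalization or tool and leaving out each replicate were not run. The count of members called under siRNA (1) became 0 with the GC trend removed, the Student t reference, the robust SD and the 0.01 threshold. The counts of members called after the deletion (1) and differing between comparisons (1) became 0 with the Student t reference, the robust SD and a minimum mean of 50, where JUNB is left out at 34.0. Genes of the other lists called under siRNA (6) numbered 0 with the Student t reference, 0 at 0.01 and 2 with the robust SD, and after the deletion (38) 0, 23 and 0. With the Student t reference 0 of all genes were called after the deletion (1646 at an unadjusted p-value under 0.05) and 0 in the difference (1386), and with the robust SD 0 (535) and 0 (447). Under siRNA 5 of all genes were called with the Student t reference (390 by the deposited Wald test). At 0.01, 243 were called under siRNA, 786 after the deletion (1874 at 0.05) and 539 in the difference (1493). With the GC trend removed, CALCRL after the deletion was at -1.07 (adjusted p-value 0.0753), and signs turned for uncalled values: after the deletion ATF3 0.0798, EDN1 0.0819, HPRT1 0.19, MAFF 0.00603 and FOSL1 -0.26 (0 when centred), under siRNA CYR61 0.00946, and in the difference FOSL1 0.19, JUN -0.13 and MAFF -0.0248. The cause was not tested. Of the values of single members under these alternatives, 177 kept their direction and side of the threshold and 8 lost the call. Another 7 changed sign, counting among them the centred value of FOSL1 after the deletion, which became 0.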
